A study of Mus musculus with 8 samples.

Results

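The chemokines, homing receptors and lymphotoxins that build lymphoid clusters in fat were examined in bulk RNA sequencing data of the stromal vascular fraction (SVF) of gonadal white adipose tissue (WAT). The group consisted of 10 named genes, Cxcl13, Cxcr5, Ccl19, Ccl21a, Ccr7, Ccr6, Lta, Ltb, Ltbr and Cxcl12, which were found by gene name in 12 rows of a table of 54532 genes. Ccl19 and Ccl21a had 2 rows each. Of the 10 names, 8 had a row with enough counts to be tested among 15963 genes, and Lta and Ccl19 did not. The SVF is the pellet of a collagenase digest of the fat pad, left after adipocytes have floated off and red cells have been lysed. All 8 mice were male C57BL/6J and entered the study at 6 weeks of age by the series description. The study's methods instead describe mice of 8 or 16 weeks. The mice became obese on an HFD (60% of its calories as fat) over 12 weeks. They were then moved to a NCD (16% of its calories as fat). During the 6 weeks on NCD, 4 mice received the anti-BAFF Ab Sandy-2 and 4 received an isotype control Ab, both at 2 mg/kg every 2 weeks, and 1 gonadal fat pad per mouse was taken at week 18. The comparison asked whether BAFF neutralization changed the RNA of these genes in the SVF. There were no lean or untreated mice, so both groups shared the obesity, the diet switch and an antibody injection.

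Fat-associated lymphoid clusters are small, capsule-free gatherings of lymphocytes that are common in omental, mesenteric and pericardial fat and sparse in gonadal fat. Their stroma makes CXCL13, which draws B cells through CXCR5, while CCL19 and CCL21 draw T cells, B cells and dendritic cells through CCR7. Lymphotoxin made by lymphocytes and innate lymphoid cells acts on the lymphotoxin beta receptor of stromal cells, and in lymph nodes this signal sustains the production of CXCL13 and CCL21. BAFF is a survival factor of mature B2 cells, the cells that carry most of the CXCR5 in lymphoid tissue.

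The deposited counts per mouse summed to 13562340 to 18548024. Levels are given as CPM, the count of a gene relative to the TMM-scaled library size, and levels of different genes are compared only as FPKM, which also divides by gene length. The summed level of 10 B cell markers, among them Ms4a1, was 66.7 to 79.6 CPM in control Ab-treated mice and 31.7 to 58.4 CPM in anti-BAFF Ab-treated mice, without overlap (two-sided exact permutation test over mice, p = 0.0286), and 8 of the 10 markers were lower at an unadjusted p under 0.05, against 1.24% of all genes tested. None of the 10 passed an adjusted p of 0.05. In bulk RNA, fewer cells of a type and less RNA per cell cannot be told apart. The summed T cell markers overlapped, at 44.9 to 73.1 CPM against 42.2 to 62.5 CPM. Epididymis genes reached 1734 CPM in control Ab mouse 2 and 1711 CPM in anti-BAFF Ab mouse 7, against 17.0 to 674 CPM in the other mice. Neutrophil markers reached 232 CPM in anti-BAFF Ab mouse 5 and were 35.7 to 102 CPM elsewhere. Fold changes without these mice stand beside the results they touch.

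By edgeR's quasi-likelihood test, none of the 8 tested members passed an adjusted p of 0.05, which 0.0564% of all genes tested did. None passed it by DESeq2 either. Cxcr5, the receptor for CXCL13 on B cells, and Ccr6, the receptor for CCL20, were lower after anti-BAFF Ab at an unadjusted p under 0.05, with log2 fold changes of -1.04 and -1.15. These were 2 of 8 tested members, against 1.24% of all genes tested that were lower by the same measure. No member was higher at an unadjusted p under 0.05, against 0.664% of all genes. Cxcl13, Ccl21a, Cxcl12, Ccr7, Ltb and Ltbr had log2 fold changes between -0.21 and 0.48. The groups overlapped for every tested member, whereas 0.952% of all genes tested had every anti-BAFF Ab-treated mouse below every control Ab-treated mouse. The median log2 fold change of the 8 members was -0.02, and it was 0.00 over all genes tested.

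**Figure D1:**
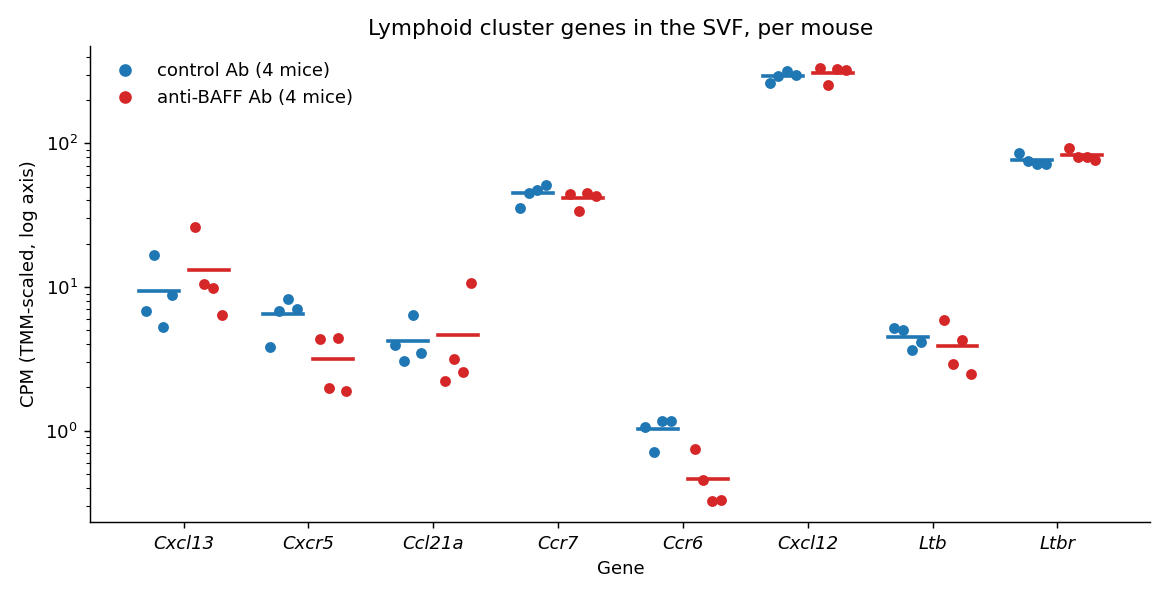
Level of the 8 tested genes in each of the 8 mice, in CPM on a log axis. Each point is 1 mouse and each bar is the mean of the 4 mice of a group. Cxcr5 and Ccr6 sat lower after anti-BAFF Ab with 1 or 2 points in the range of the other group, and the points of the other genes were mixed.

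Per length, the stromal chemokine Cxcl12 and the receptor Ltbr were the most abundant members over all 8 mice, with median levels of 37.9 and 33.4 FPKM and overlapping ranges. Ccr7 followed at 22.5 FPKM, and its highest mouse, at 26.1 FPKM, was below the lowest mouse for Ltbr, at 30.6 FPKM. Ccl21a on its scaffold row and Cxcl13 came next at 8.24 and 8.11 FPKM, and these neighbours overlapped. Ltb had a median of 2.79 FPKM, and its highest mouse, at 3.86 FPKM, was below the lowest mouse for Cxcl13, at 4.58 FPKM. Cxcr5 had a median of 1.32 FPKM and Ccr6 of 0.312 FPKM, with no overlap between the 2 genes, and Lta was at 0.107 FPKM. Ccl19 was last, with a median of 0 FPKM on both rows.

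Cxcl13, the follicular B cell attractant, did not differ between the groups beyond its spread and was the most variable tested member by the ratio of its highest to its lowest mouse, 4.96. It was measured at 6.82, 16.7, 5.27 and 8.80 CPM in control Ab mice 1, 2, 6 and 9, and at 26.1, 10.5, 9.85 and 6.40 CPM in anti-BAFF Ab mice 5, 7, 8 and 10. Anti-BAFF Ab mouse 5 stood highest and control Ab mouse 2 came next, and the groups overlapped. The log2 fold change was 0.48 with an SE of 0.48 (95% interval -0.59 to 1.56, unadjusted p = 0.336, adjusted p = 1.00). It was -0.093 without anti-BAFF Ab mouse 5, the mouse with the highest neutrophil markers, 0.92 without control Ab mouse 2, and 1.00 without control Ab mouse 2 and anti-BAFF Ab mouse 7 (unadjusted p = 0.0903). Whether neutrophils or other cells had a part in these levels was not tested.

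Cxcr5, its receptor, was lower after anti-BAFF Ab before adjustment. Its level was 3.85, 6.80, 8.27 and 7.06 CPM in control Ab mice 1, 2, 6 and 9, against 4.38, 1.97, 4.44 and 1.88 CPM in anti-BAFF Ab mice 5, 7, 8 and 10. The overlap came from control Ab mouse 1, which was below anti-BAFF Ab mice 5 and 8. The group means were 6.49 ± 1.88 and 3.16 ± 1.43 CPM (SD, n = 4 mice each). The log2 fold change was -1.04 with an SE of 0.36 (95% interval -1.85 to -0.23, unadjusted p = 0.0170, adjusted p = 1.00). Leaving out 1 mouse at a time gave log2 fold changes of -1.26 to -0.85. Without control Ab mouse 2 and anti-BAFF Ab mouse 7, the mice with the highest epididymis genes, it was -0.87 and the unadjusted p was 0.0744. The 3' end of Cxcr5 overlaps Bcl9l, a gene on the opposite strand, only from base 44511787 to base 44511896 of chromosome 9. Over their whole lengths Bcl9l had 6926 counts and Cxcr5 606. Whether the counting used strand is not given in the sources used here. Bcl9l had a log2 fold change of -0.11 (unadjusted p = 0.445).

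Ccl19 and Ccl21a encode the CCR7 ligands of T cell zones and lymphatic vessels, and their data were limited by low counts and by near-identical gene copies. Ccl19 had 1 count on chromosome 4 and 1 count on a scaffold over all 8 mice, both in control Ab-treated mice, and 0 counts in each anti-BAFF Ab-treated mouse, which allow a level of up to 3 counts or 0.165 to 0.202 CPM. No difference was therefore detectable on these rows at this depth. The pseudogene Ccl19-ps3 on chromosome 4 had 23, 4, 15 and 0 counts in control Ab mice 1, 2, 6 and 9. In anti-BAFF Ab mice 5, 7, 8 and 10 it had 18, 32, 34 and 42 counts. Its log2 fold change was 1.46 by edgeR's test (unadjusted p = 0.0793), and it did not pass the adjusted threshold. Whether reads of Ccl19 fell on the pseudogene row was not tested. Ccl21a was at 3.97, 3.07, 6.36 and 3.47 CPM in control Ab mice 1, 2, 6 and 9, and at 2.22, 3.15, 2.54 and 10.6 CPM in anti-BAFF Ab mice 5, 7, 8 and 10, on its scaffold row. Anti-BAFF Ab mouse 10 stood apart at the top, while anti-BAFF Ab mice 5 and 8 were below every control Ab mouse. The log2 fold change was 0.14 with an SE of 0.51 (95% interval -1.001 to 1.288, unadjusted p = 0.783, adjusted p = 1.00), and it was -0.67 (unadjusted p = 0.0574) without that mouse. The chromosome 4 row of Ccl21a had 32 counts over the 8 mice and was too low for the fit. On the log2(CPM + 0.5) scale its difference was -0.03 (two-sided exact permutation test over mice, p = 0.943).

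Mouse chromosome 4 and its scaffolds carry several Ccl21 genes, and the copy named Gm10591, for which RefSeq lists Ccl21b and Ccl21c as synonyms, had 512 counts against 579 on the scaffold row of Ccl21a. Gm10591 was singled out after its values were seen. Both rows have a gene length of 402 bases. Promoters were compared for the chromosome 4 copy of Ccl21a, whose row has 32 counts, as the scaffold copy's promoter was not compared. The promoters of this Ccl21a copy and of Gm10591 were identical at 296 of 299 aligned bases. The bases upstream of both starts are shown because they differ at only 2 positions, which are in capitals, and so show how alike these chromosome 4 copies are. They do not show how reads were split between the rows. The sequences are from RefSeq.
Ccl21a (GRCm38.p6, chr4:42773992-42774240, minus strand): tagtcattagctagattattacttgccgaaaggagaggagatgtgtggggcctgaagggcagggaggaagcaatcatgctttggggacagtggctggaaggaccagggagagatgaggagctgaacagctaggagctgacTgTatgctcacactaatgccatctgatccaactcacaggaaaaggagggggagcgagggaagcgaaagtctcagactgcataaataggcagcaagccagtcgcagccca
Gm10591 (GRCm38.p6, chr4:42611873-42612121, plus strand): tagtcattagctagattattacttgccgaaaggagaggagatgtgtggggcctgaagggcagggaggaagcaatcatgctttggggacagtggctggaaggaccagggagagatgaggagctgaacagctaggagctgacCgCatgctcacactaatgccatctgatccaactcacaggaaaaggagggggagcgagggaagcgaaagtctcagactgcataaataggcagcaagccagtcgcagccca

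Gm10591 had 17, 9, 13 and 48 counts in control Ab mice 1, 2, 6 and 9, and 104, 94, 162 and 65 counts in anti-BAFF Ab mice 5, 7, 8 and 10. All 4 treated mice were above all 4 control mice, which 0.526% of all genes tested also showed. In CPM the means were 1.38 ± 1.09 and 6.61 ± 2.98 (SD, n = 4 mice each). Gm10591 had a log2 fold change of 2.25 with an SE of 0.53 (95% interval 1.06 to 3.44, unadjusted p = 0.00201, adjusted p = 0.729), so the row did not pass the adjusted threshold by edgeR's test. DESeq2 gave 2.25 with an adjusted p of 0.00505. Without control Ab mouse 2 and anti-BAFF Ab mouse 7, edgeR gave 2.05 (unadjusted p = 0.00777). The share of a mouse's Ccl21 counts that fell on Gm10591 was 7.43 to 36.9% in control Ab-treated mice and 23.7 to 76.8% in anti-BAFF Ab-treated mice (two-sided exact permutation test over mice, p = 0.0571). How reads that match several copies were assigned is not given in the sources used here, so the split between these rows is uncertain.

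With all 9 rows of the 6 Ccl21 names added up, the level was 5.64, 4.20, 12.8 and 8.05 CPM in control Ab mice 1, 2, 6 and 9, and 9.96, 9.57, 13.8 and 15.1 CPM in anti-BAFF Ab mice 5, 7, 8 and 10. Control Ab mouse 6 reached the treated range, in part through 62 counts on a scaffold row of Ccl21c. The summed log2 fold change was 0.66 (unadjusted p = 0.0711, adjusted p = 1.00), so summing did not give a call either. Ccl21c alone had a log2 fold change of -1.59 (unadjusted p = 0.0895), and Ccl21b had 1 count over both of its rows.

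**Figure D2:**
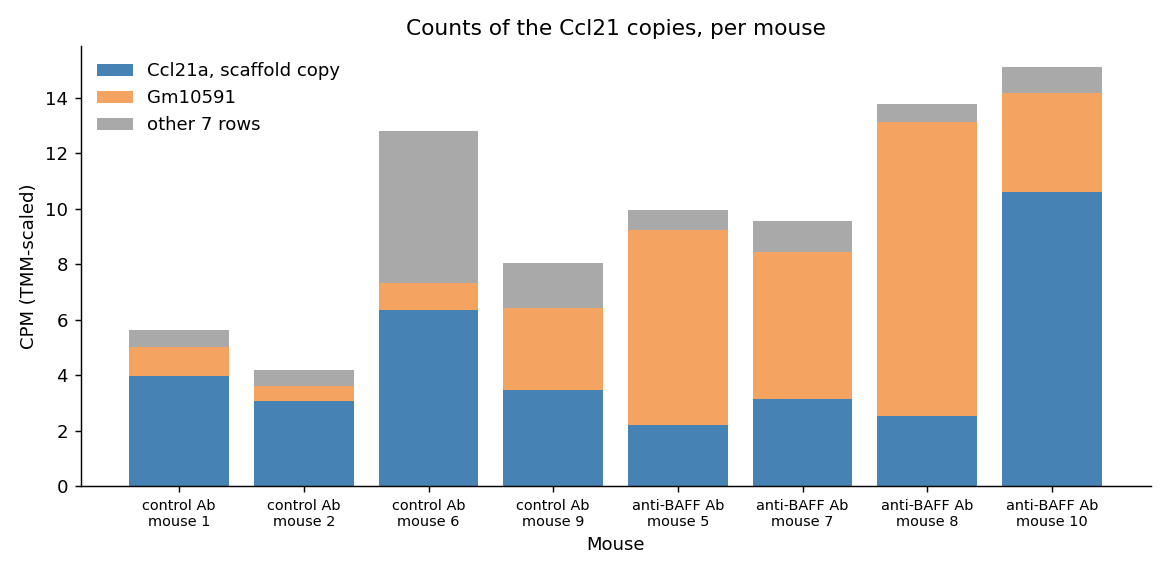
Counts of the Ccl21 copies per mouse in CPM, stacked as the scaffold row of Ccl21a, Gm10591 and the other 7 rows. Gm10591 made up 7.43 to 36.9% of the bar in control Ab-treated mice and 23.7 to 76.8% in anti-BAFF Ab-treated mice, and the whole bars overlapped between the groups.

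Ccr7, the receptor for both of these ligands on naive lymphocytes and migrating dendritic cells, did not differ detectably. It was at 35.4, 44.9, 47.5 and 51.7 CPM in control Ab mice 1, 2, 6 and 9, and at 44.2, 33.9, 45.0 and 43.0 CPM in anti-BAFF Ab mice 5, 7, 8 and 10. The groups overlapped. Its log2 fold change was -0.11 with an SE of 0.13 (95% interval -0.41 to 0.19, unadjusted p = 0.421, adjusted p = 1.00). Summed markers of migratory dendritic cells, among them Fscn1 and Ccl22, were 197 to 234 CPM against 203 to 252 CPM. Fscn1 was the largest part of this sum, so it says little on the rarer markers of the list. Ackr4, a scavenger of CCL19 and CCL21, had a log2 fold change of -0.25 (unadjusted p = 0.425).

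Ccr6, found on mature B cells, type 3 innate lymphoid cells and Th17 cells, was lower after anti-BAFF Ab before adjustment and was the least abundant tested member. It was at 1.05, 0.709, 1.17 and 1.18 CPM in control Ab mice 1, 2, 6 and 9, against 0.741, 0.450, 0.326 and 0.331 CPM in anti-BAFF Ab mice 5, 7, 8 and 10. The only crossing was between control Ab mouse 2 and anti-BAFF Ab mouse 5. The means were 1.03 ± 0.220 and 0.462 ± 0.194 CPM (SD, n = 4 mice each), from 94 counts over all 8 mice. On the log2 scale the difference was -1.15 with an SE of 0.35 (95% interval -1.93 to -0.36, unadjusted p = 0.00908, adjusted p = 1.00), and -1.47 to -1.01 with 1 mouse left out. It was -1.30 without control Ab mouse 2 and anti-BAFF Ab mouse 7, where the unadjusted p was 0.0169. Its ligand Ccl20 had 0 counts in every mouse, which allows up to 3 counts per mouse, or 0.165 to 0.219 CPM.

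Ccr6 has 2 promoters in the RefSeq table, shown because each holds a motif of lymphocyte gene control within 250 bases before the start. The octamer motif, the letters ATGCAAAT, which POU factors such as OCT2 of B cells bind, was searched on both strands. It occurred in 1.60% of the 32851 promoters of this length and in 1 of 9 promoters of 8 members, which were all members but Cxcr5 and Ccr7. There it lay 68 bases before the first Ccr6 start and read on the opposite strand. The kappa B motif, which NF-kappaB factors downstream of the lymphotoxin beta receptor bind, occurred in 7.25% of promoters and in 2 of the 9. These 2 were the second Ccr6 start, where 2 matches overlap, and Ltb. Capitals mark the motif, the matches are descriptions of letters only, and the sequences are from RefSeq.
Ccr6, first start (GRCm38.p6, chr17:8235793-8236042, plus strand): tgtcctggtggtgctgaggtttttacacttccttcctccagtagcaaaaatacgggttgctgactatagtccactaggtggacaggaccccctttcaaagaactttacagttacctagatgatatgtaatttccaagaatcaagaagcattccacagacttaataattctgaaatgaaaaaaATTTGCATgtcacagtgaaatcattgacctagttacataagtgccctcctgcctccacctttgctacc
Ccr6, second start (GRCm38.p6, chr17:8242276-8242525, plus strand): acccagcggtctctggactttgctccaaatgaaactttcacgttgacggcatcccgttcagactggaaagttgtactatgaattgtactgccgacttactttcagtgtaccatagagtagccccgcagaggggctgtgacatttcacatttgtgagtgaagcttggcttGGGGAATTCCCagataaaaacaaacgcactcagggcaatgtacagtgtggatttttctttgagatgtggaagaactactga
Ltb (GRCm38.p6, chr17:35194257-35194506, plus strand): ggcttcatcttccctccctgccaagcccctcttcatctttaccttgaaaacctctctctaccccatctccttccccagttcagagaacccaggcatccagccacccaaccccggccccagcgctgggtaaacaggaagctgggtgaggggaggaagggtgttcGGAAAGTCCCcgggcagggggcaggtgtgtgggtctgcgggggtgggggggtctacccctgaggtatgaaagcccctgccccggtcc

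Cxcl12, the stromal chemokine that retains B cells and their precursors through CXCR4, was the most even chemokine of the group. Its level was 264, 294, 321 and 300 CPM in control Ab mice 1, 2, 6 and 9, and 336, 256, 327 and 324 CPM in anti-BAFF Ab mice 5, 7, 8 and 10. Anti-BAFF Ab mouse 7 was the lowest of all and the other 3 treated mice the highest. Cxcl12 had a log2 fold change of 0.08 with an SE of 0.11 (95% interval -0.16 to 0.32, unadjusted p = 0.488, adjusted p = 1.00). Its receptor Cxcr4 had a log2 fold change of -0.11 (unadjusted p = 0.463) and its scavenger Ackr3 of -0.03 (unadjusted p = 0.907). Ackr1, an atypical receptor that binds inflammatory chemokines on venules, had 0.24 (unadjusted p = 0.448).

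The lymphotoxin genes Lta and Ltb, which encode the subunits of the membrane-bound lymphotoxin that starts lymphoid organ formation, were low and not detectably different. Lta had 3, 4, 1 and 4 counts in control Ab mice 1, 2, 6 and 9, and 4, 1, 1 and 2 counts in anti-BAFF Ab mice 5, 7, 8 and 10. These 20 counts were too few for the fit, and on the log2(CPM + 0.5) scale the difference was -0.14 (two-sided exact permutation test over mice, p = 0.400). Ltb was at 5.15, 5.02, 3.66 and 4.15 CPM in control Ab mice 1, 2, 6 and 9, and at 5.86, 2.93, 4.31 and 2.48 CPM in anti-BAFF Ab mice 5, 7, 8 and 10. The treated mice spanned the whole control range. The log2 fold change of Ltb was -0.21 with an SE of 0.28 (95% interval -0.85 to 0.42, unadjusted p = 0.468, adjusted p = 1.00). It was -0.49 without anti-BAFF Ab mouse 5 (unadjusted p = 0.0818), -0.046 without anti-BAFF Ab mouse 10, and -0.058 without control Ab mouse 2 and anti-BAFF Ab mouse 7.

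Ltbr, the receptor through which stromal and myeloid cells read this signal, was at 85.0, 75.5, 72.0 and 72.0 CPM in control Ab mice 1, 2, 6 and 9. It was at 92.3, 80.7, 80.8 and 76.7 CPM in anti-BAFF Ab mice 5, 7, 8 and 10. The overlap came from control Ab mouse 1 alone, and the log2 fold change was 0.12 with an SE of 0.09 (95% interval -0.08 to 0.32, unadjusted p = 0.209, adjusted p = 1.00). Ltbr, Ltb, Cxcl12 and Cxcl13 all had their highest level in anti-BAFF Ab mouse 5, the mouse with the highest neutrophil markers. Among the treated mice it also had the highest summed B cell markers, 58.4 CPM against 31.7 to 39.5 CPM. The same held for the T cell markers, 62.5 CPM against 42.2 to 51.9 CPM. The part of any of these cells was not tested. Without anti-BAFF Ab mouse 5 the log2 fold change was 0.046 for Ltbr and 0.021 for Cxcl12.

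**Figure D3:**
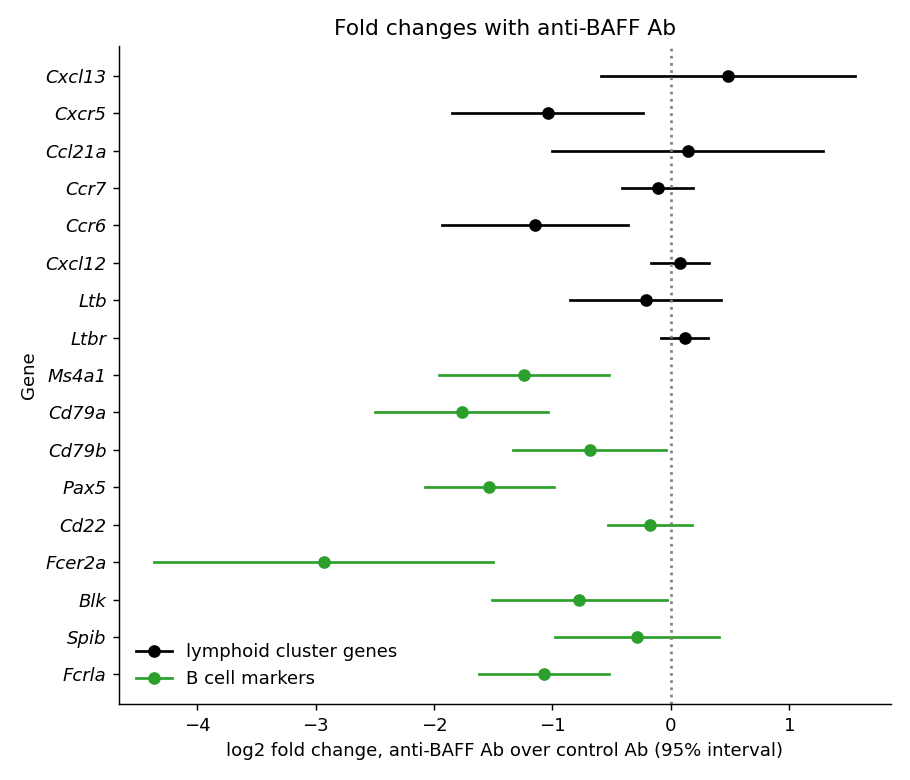
Log2 fold change of anti-BAFF Ab over control Ab with 95% interval from the fit across all genes. Black marks the 8 tested lymphoid cluster genes and green 9 of the 10 B cell markers, as 1 is not reported here. The intervals of Cxcr5 and Ccr6 lie below 0 and within the span of the B cell markers, and those of the other 6 members include 0.

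Cxcr5, Ccr6, Ccr7 and Ltb were then set against the B cell markers of the same mouse. These genes are found in lymphocytes, and Ccr7 also in migrating dendritic cells. The measure was the log2 ratio of gene CPM to the summed marker CPM. Cd22 was the largest part of that sum, with a mean of 17.5 of 71.9 CPM in control Ab-treated mice. In anti-BAFF Ab-treated mice it was 15.5 of 40.5 CPM (log2 fold change -0.18). Cd22 was not among the 8 markers that were lower at an unadjusted p under 0.05. For Cxcr5 and Ccr6 the groups overlapped in the ratio to the summed markers. The ratio of Cxcr5 was -3.52 ± 0.43 in control Ab-treated and -3.75 ± 0.43 in anti-BAFF Ab-treated mice, a difference of -0.23 that the two-sided exact permutation test did not distinguish (p = 0.457). The ratio of Ccr6 differed by -0.34 (two-sided exact permutation test, p = 0.257). With Cd79a and Cd79b, the signalling subunits of the B cell receptor, as the reference, both differences changed sign, to 0.25 for Cxcr5 and 0.14 for Ccr6.

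Relative to the B cell markers, Ltb and, with 1 overlap, Ccr7 stood higher after anti-BAFF Ab, without passing the adjustment. Per B cell marker, Ltb was at -3.70, -3.99, -4.32 and -4.04 in control Ab mice 1, 2, 6 and 9, and at -3.32, -3.47, -3.20 and -3.68 in anti-BAFF Ab mice 5, 7, 8 and 10. All treated mice lay above all control mice, a difference of 0.59 on the log2 scale. The reference itself differed by -0.87 on the log2 scale, while Ltb and Ccr7 were not higher (log2 fold changes -0.21 and -0.11). Their higher ratios therefore came from the lower reference, and the tests of these ratios add nothing on the genes themselves. For Ltb the two-sided exact permutation test gave p = 0.0286, the smallest that 4 against 4 mice allow, and 0.114 after adjustment over the 4 ratios. The ratio of Ccr7 was 0.76 higher (two-sided exact permutation test, p = 0.0571, adjusted p = 0.114), with 1 overlap, between control Ab mouse 9 and anti-BAFF Ab mouse 5. With Cd79a and Cd79b as the reference the differences were 1.24 for Ccr7 and 1.08 for Ltb, and with the mean log2 CPM of the B cell markers 1.09 and 0.92. In these the groups did not overlap (two-sided exact permutation test, p = 0.0286, adjusted p = 0.0571). All 10 markers had log2 fold changes below 0, among them Cd79a (-1.77) and Cd79b (-0.68), so these references were lower too. Without control Ab mouse 2 and anti-BAFF Ab mouse 7, the ratios to the summed markers differed by -0.15 for Cxcr5, -0.67 for Ccr6, 0.72 for Ccr7 and 0.62 for Ltb. Against the T cell markers the differences were 0.04 for Ccr7 and -0.13 for Ltb.

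**Figure D4:**
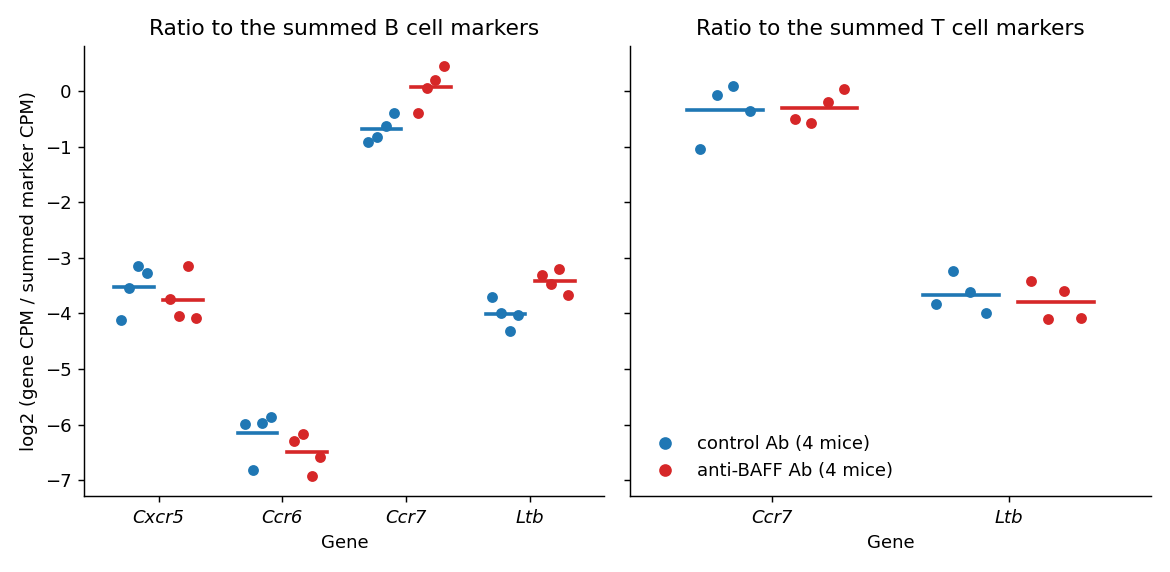
Log2 ratio of each gene's CPM to the summed CPM of the 10 B cell markers (left) and of the 10 T cell markers (right), 1 point per mouse with the mean of each group as a bar. Per B cell marker, Ltb was higher in all 4 anti-BAFF Ab-treated mice, as the summed B cell markers were lower, and Cxcr5 and Ccr6 overlapped. Per T cell marker, both Ccr7 and Ltb overlapped.

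The wider pathway around these genes showed no gene past the adjusted p or at an unadjusted p under 0.05 by edgeR's test. A list around lymphotoxin signalling also held Tnf, RANK ligand and receptors of the TNF family. Of its 15 tested genes, 13 had log2 fold changes above 0, with a median of 0.13, while 8214 of all 15963 genes tested were above 0. In it the lowest unadjusted p was 0.0811 for Tnfsf14, the ligand LIGHT (log2 fold change 0.29). Of 14 tested positioning and retention genes the median was -0.02, and the lowest p was 0.178 for Cyp7b1, an enzyme of oxysterol synthesis (0.21). Of 12 tested inducers of lymphoid clusters the median was 0.10, and the lowest p was 0.0620 for Il1rl1, the IL-33 receptor (0.33). Of the 7 genes listed as chemokine partners and scavengers, 4 of the 5 tested rows were below 0, with a median of -0.11, which was the log2 fold change of Cxcr4.

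Markers of the stroma that makes these chemokines were uneven. Glycam1 and Madcam1, markers of high endothelial venules, had 11 and 7 counts over all 8 mice, and the summed level of their list, 101 to 163 against 123 to 153 CPM, came mostly from Enpp2. The summed follicular dendritic cell list overlapped, at 30.6 to 62.1 against 34.3 to 54.6 CPM, and came mostly from Sox9 (log2 fold change 0.15). Within it Cr2, carried by follicular dendritic cells and also by B cells, was at 1.20 ± 0.267 against 0.192 ± 0.189 CPM (SD, n = 4 mice each), with a log2 fold change of -2.65 (unadjusted p = 0.00062, adjusted p = 0.319), which did not pass the adjusted threshold. Summed lymphatic endothelium markers, with Prox1 and Lyve1, were 201 to 409 against 249 to 369 CPM, and fibroblastic reticular markers, with Pdpn and Pdgfrb, were 310 to 385 against 358 to 417 CPM. Of 6 genes listed for type 3 innate lymphoid cells, 4 stayed under 1 CPM in every mouse.

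The genes most alike in pattern were found by Pearson's r of log2 CPM over the 8 mice after subtracting each group mean. They were Glyctk, Pgm2 and Elp3 for Cxcl13, with r of 0.98, 0.97 and 0.97. For Ccl21a they were Dcaf6, 1700088E04Rik and Thoc1, with r of 0.97, 0.96 and 0.95. For Cxcr5 they were Ubald2, Rrp1b and Hspb6, with r of 0.98, 0.98 and 0.97. These are the highest of 15963 values over 8 mice that share their libraries, and they are given as a description.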

How the data were processed

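SVF RNA of 8 separate mice (4 control Ab, 4 anti-BAFF Ab) was sequenced, and the groups and mouse numbers were taken from the sample titles. Mouse numbers differ between the groups, so mice were not paired. Per the study's methods, the authors had paired-end libraries sequenced on a NovaSeq instrument. They deposited raw counts per gene in 1 table with a column per mouse. The deposited table also held the gene length in bases, an other value used here only for FPKM. The submitters' processing notes name the mm10 genome build. The aligner, the counting tool, its use of strand and the annotation release are not given in the sources used here.

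Anti-BAFF Ab was compared with control Ab by edgeR 4.0.16, run in R 4.3.3 (minimum count of 10 in filterByExpr, TMM scaling, quasi-likelihood test, prior degrees of freedom 3.14), with Benjamini-Hochberg adjustment over the 15963 genes tested. The fit was tested on simulated data. Exact permutation tests over mice were run in Python 3.11.15 with scipy 1.17.1. Total counts of 13562340 to 18548024 per mouse set the depth, and floors of 3 counts cover counting error only. Promoters were read from a RefSeq table of GRCm38.p6. The table's coordinates overlapped RefSeq's for the chromosome rows of all 10 genes, and the scaffold rows of Ccl19 and Ccl21a were not among those compared. The genes named are all members, all chemokine partners and scavengers, up to 4 genes per other pathway list with the lowest unadjusted p under 0.05 or else the 1 with the lowest p, the 3 genes most alike to Cxcl13, Ccl21a and Cxcr5 (Ccl19 was not tested), and the leading marker genes. Values of single marker genes that fall under this rule but are missing from the text are not reported here. The members and lists were chosen with earlier results of these data known. Alternatives were RLE, upper quartile and library size scaling, other filters, DESeq2 1.42.0, limma 3.58.1 on log2(FPKM + 1) and log2(FPKM + 0.1), the robust option, other references for the ratios, a pseudocount of 0.1, and leaving out mice. Summing the Ccl21 copies, and the ratios without control Ab mouse 2 and anti-BAFF Ab mouse 7, were added after seeing the data.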

Additional observations from a re-analysis of the deposited data

Results flagged for a closer look

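Over 58 groups of 4 mice, 5 held a mouse that stood apart from the other 3 by Dixon's criterion, and chance flags about 1 in 20 groups. Ccl21a was at 10.6 CPM in anti-BAFF Ab mouse 10. Cxcl12 was at 256 CPM in anti-BAFF Ab mouse 7, below the other treated mice. The log2 ratio of Ccr6 to the summed B cell markers was -6.81 in control Ab mouse 2. The summed neutrophil markers were 102 CPM in control Ab mouse 6 and 232 CPM in anti-BAFF Ab mouse 5. In control Ab mouse 6 most of the sum was Ltf, at 73.3 CPM, and no other gene of the list was highest in that mouse. Cxcr2 was at 0.293 CPM there and at 8.68 CPM in anti-BAFF Ab mouse 5.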

How the results depend on the processing

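No member passed an adjusted p of 0.05 under any alternative run, including each mouse left out and the Ccl21 copies summed. The number of genes past it was 9, and it was 70 with DESeq2, 19 without a filter, 2 with limma on log2(FPKM + 0.1), 2 with the robust option, 3 without control Ab mouse 2 and anti-BAFF Ab mouse 7, and 2 to 9 with 1 mouse left out (9 without control Ab mouse 2, 5 without control Ab mouse 9 and 2 without any other mouse). The causes were not tested. No paired analysis was possible because the groups share no mouse numbers.

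Cxcr5 ranged from -1.26 to -0.85 and Ccr6 from -1.47 to -1.01 in log2 fold change with 1 mouse left out. With limma they were -0.60 and -0.27 on log2(FPKM + 1), and -1.01 and -0.88 on log2(FPKM + 0.1), scales on which the pseudocount shrinks changes of low genes. Under the filter that asked for 10 counts in each library, Ccr6 could not be tested. Ltb ranged from -0.49, without anti-BAFF Ab mouse 5, to -0.046, without anti-BAFF Ab mouse 10. Ccl21a changed sign under limma, to -0.13 on log2(FPKM + 0.1) and -0.10 on log2(FPKM + 1), and ranged from -0.67, without anti-BAFF Ab mouse 10, to 0.41. Cxcl13 ranged from -0.093, without anti-BAFF Ab mouse 5, to 0.92. Gm10591 passed the adjusted p only with DESeq2 (2.25, adjusted p 0.00505) and ranged from 1.92 to 2.96. The ratio of Cxcr5 to the B cell markers changed sign to 0.25 with Cd79a and Cd79b and to 0.091 with the mean log2 CPM as the reference, and that of Ccr6 to 0.14 with Cd79a and Cd79b. That of Ltb was -0.13 against the T cell markers. With 1 mouse left out, the ratios ranged from -0.43 to -0.11 for Cxcr5, -0.56 to -0.20 for Ccr6, 0.64 to 0.92 for Ccr7 and 0.49 to 0.70 for Ltb. Exact permutation tests of 3 against 4 mice cannot go below p = 0.0571. The chromosome 4 row of Ccl21a was 0.091 on log2(CPM + 0.1) and ranged from -0.17 to 0.27. Lta ranged from -0.24 to -0.09, and the Ccl19 rows from -0.056 and -0.066 to 0.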
